A study of Mus musculus with 6 samples.

Results

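The 10 genes described here, Cdkn1a, Mdm2, Ccng1, Phlda3, Eda2r, Trp53inp1, Zmat3, Aen, Plk2 and Ei24, are well-known transcriptional targets of p53. They were picked by name from the 54532 genes of the deposited count table, and all 10 passed the filter on low counts that 14883 genes passed. Mouse CD8T cells from spleen, activated with beads carrying antibodies to CD3 and CD28, spent 24 hr in coculture with macrophages, which IFN-γ at 10 ng/mL had activated over 12 hr beforehand. In the DB2313 group the macrophages had also received 14 nM DB2313, which inhibits Spi1 (PU.1), a transcription factor of myeloid cells, and in the control group they had not. Bulk RNA sequencing gave 3 libraries in each group. The comparison asks how libraries labelled as T cells differ after contact with inhibitor-treated macrophages, and these libraries also held transcripts of macrophage markers. The GEO labels call the libraries primary T cells and the coculture partners DC cells, whereas the study's methods describe peritoneal macrophages induced with thioglycolate. Strain, age and sex were not given per library, nor was it stated whether the 3 libraries of a group came from separate cultures, so that the p-values measure the spread between these libraries, which may be technical.

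The transcription factor p53, encoded by Trp53, is held at a low level by Mdm2, a ubiquitin ligase that is itself induced by p53, and it accumulates after DNA damage, nucleolar stress or oncogene activity. Its targets slow the cell cycle (Cdkn1a, which encodes the cyclin-dependent kinase inhibitor p21), return p53 to its resting level (Mdm2, Ccng1), restrain growth signalling (Phlda3) or take part in cell death and RNA control (Aen, Ei24, Trp53inp1, Zmat3). In activated T cells, p53 and p21 are known brakes on proliferation. Many of these genes also respond to other inputs, so their transcripts are no direct measure of p53 activity.

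Total counts ranged from 16611975 to 18596217 per library. All 20 T cell markers were higher in the DB2313 group (median log2 fold change 0.61), and their summed share of counts was 0.357 to 0.364% in control and 0.576 to 0.581% in DB2313 libraries. Of 24 tested macrophage markers, 21 were lower and 3 (Marco, Trem2 and Ms4a7) were higher, with a median of -0.90 and a summed share of 1.39 to 1.43% against 0.581 to 0.596%. In every control library the macrophage markers thus held more counts than the T cell markers, and in DB2313 libraries the shares were nearly equal. The lists hold different genes, so their shares are no measure of cell numbers. Of the other lists, 1 of 10 neutrophil markers was higher and 9 were lower, 1 of 11 dendritic cell markers (Flt3) was higher and 9 were lower, 4 of 7 B cell markers were higher, and all 5 granule genes of granulocyte progenitors were higher. Neutrophil markers held 0.160 to 0.161% against 0.0605 to 0.0632%, dendritic cell markers 0.327 to 0.330% against 0.210 to 0.212%, with Siglech at 0 counts in every library, B cell markers 0.0047 to 0.0051% against 0.0073 to 0.0076%, and the granule genes 0.0479 to 0.050% against 0.0997 to 0.101%. Spi1 itself gave 279, 290 and 291 CPM (counts scaled to a common library size) in control and 159, 159 and 148 CPM in DB2313 libraries, a log2 fold change of -0.88 (SE 0.037). In such bulk libraries fewer cells of a type and less RNA per cell cannot be told apart, and neither can the makeup of the libraries and the treatment. The part of these markers in the results on the p53 targets was not tested.

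Promoter sequences are shown because p53 acts by binding DNA near its targets, as a pair of decamers with a short spacer between them. RefSeq promoter windows (GRCm38.p6, 250 bases before to 50 after the start site) were matched by symbol for 8 of the 10 genes, and Trp53inp1 and Zmat3 had no window. A p53 consensus decamer, searched by its name-giving consensus on both strands, lay in the windows of 5 of these genes, and in 8.36% of all 32851 windows of the same length. The 8 genes had 10 windows, so a count of genes stands here beside a share of windows. A full site of 2 decamers with a spacer of at most 13 bases and no mismatch was present in Cdkn1a, and in 0.0731% of windows. Ccng1 had a full site with 1 mismatch, and 0.627% of windows had a site with at most 1 mismatch. Capitals mark the matched decamers, and for a full site only the pair with the fewest mismatches. Each sequence is written 5′ to 3′ on the strand of its gene.
Cdkn1a, chr17:29090866-29090977, plus strand, decamers with a spacer of 12 bases from 73 to 42 bases before the earlier of its 2 RefSeq starts: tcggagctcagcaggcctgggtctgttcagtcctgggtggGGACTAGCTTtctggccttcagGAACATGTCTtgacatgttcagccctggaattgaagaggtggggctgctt
Ccng1, chr11:40755422-40755521, minus strand, adjoining decamers from 195 to 176 bases before the start: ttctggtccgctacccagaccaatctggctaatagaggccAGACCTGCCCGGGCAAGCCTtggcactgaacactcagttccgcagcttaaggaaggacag
Mdm2, chr10:117710915-117710964, minus strand, 1 decamer from 186 to 177 bases before the start: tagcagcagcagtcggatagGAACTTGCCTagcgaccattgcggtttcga
Aen, chr7:78895917-78895966, plus strand, 1 decamer from 121 to 112 bases before the later of its 2 RefSeq starts and downstream of the earlier one: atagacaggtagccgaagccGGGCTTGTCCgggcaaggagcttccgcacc
Ei24, chr9:36797335-36797364, minus strand, 1 decamer from 10 to 1 bases before the start: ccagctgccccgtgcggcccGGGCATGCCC

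No match was found in the windows of Phlda3, Plk2 and Eda2r, which says only that these letters were not in those windows. The p53-responsive promoter of Mdm2 is known to lie in its first intron, outside the window searched. A match is a description of the sequence and not a bound site.

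The p53 targets did not move as a block. After scaling by the trimmed mean of M-values (TMM), 4 were lower in the DB2313 group (Cdkn1a, Zmat3, Mdm2 and Ccng1), 3 were higher (Trp53inp1, Phlda3 and Aen) and 3 did not pass the test (Ei24, Plk2 and Eda2r), whereas scaling to the T cell markers turned all 10 lower and library size scaling gave 4 higher and 4 lower. Under scaling to the T cell markers 77.4% of all tested genes were lower and 1.14% higher, and under library size scaling 19.2% were lower and 33.1% higher, and the counts of targets are to be read against these shares. Genes were tested by quasi-likelihood in edgeR, p-values were adjusted over all tested genes after Benjamini and Hochberg, the threshold was 0.05, and genes past it are referred to as higher or lower. By the same test after TMM scaling 45.4% of all tested genes passed, 20.8% higher and 24.6% lower, beside 7 of the 10 targets. Without control library 1, control library 2 or DB2313 library 2, Trp53inp1 was the 1 target called higher. Control and DB2313 libraries did not overlap for 8 of the 10 targets and for 53.1% of tested genes. When an absolute log2 fold change above 1 was required as well, 6.67% of tested genes and none of the 10 targets passed edgeR's test. Summed, the 10 targets held 0.111 to 0.112% of all counts in control and 0.102 to 0.106% in DB2313 libraries. The median log2 fold change was -0.072 over the 10 targets and 0.019 over all tested genes.

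**Figure D1:**
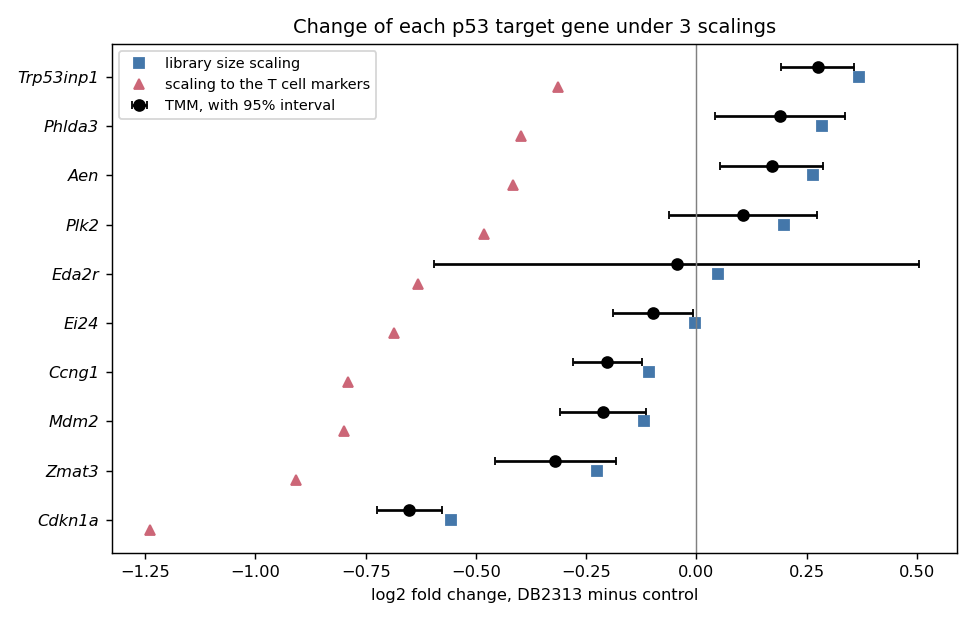
Log2 fold change (DB2313 minus control, x axis) of each p53 target gene (y axis), with 95% confidence intervals from edgeR after TMM scaling and, as squares and triangles, the values under library size scaling and scaling to the T cell markers. Cdkn1a had the lowest value (-0.65) and Trp53inp1 the highest (0.27) under TMM scaling, and all 10 values were below 0 under scaling to the T cell markers. Under that last scaling 6.32% of all tested genes were above 0.

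Cdkn1a (ENSMUSG00000023067, chr17:29090976-29100727 in the table's coordinates, plus strand) encodes p21, which binds and inhibits the cyclin-dependent kinases that drive cells into S phase. It gave 337, 346 and 356 CPM in control and 225, 222 and 215 CPM in DB2313 libraries. The lowest control library was far above the highest DB2313 library, and the spread within each group was small. The means were 346 ± 9.52 and 221 ± 5.30 CPM (SD, n = 3), which decreased by 36.3% with a log2 fold change of -0.65 (SE 0.035, 95% interval -0.72 to -0.58, edgeR adjusted p = 2.08e-13). This was the target with the largest change, greater in size than that of 84.6% of tested genes, and its mean CPM exceeded that of 96.2% of them. On the opposite strand the table places AC167363.2 over 1046 bases of Cdkn1a. That gene had 18 to 39 counts per library against 3782 to 6077 for Cdkn1a, and since the sources used here do not state whether strand was counted, reads of the overlap cannot be assigned with certainty.

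**Figure D2:**
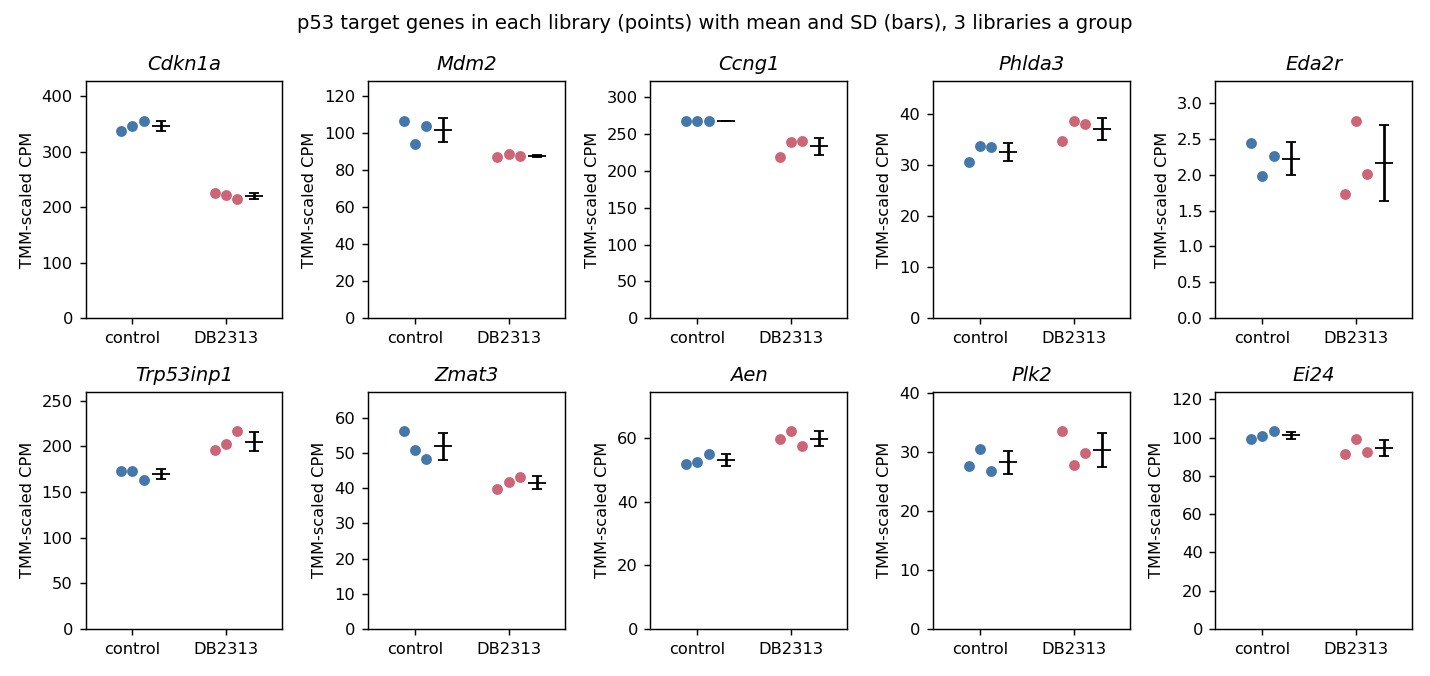
TMM-scaled CPM of the 10 p53 target genes in each of the 3 control and 3 DB2313 libraries, one panel per gene, with points for libraries and bars for group mean and SD. Cdkn1a lies at 337–356 and 215–225 CPM, Trp53inp1 lies at 163–173 and 196–216 CPM, and the libraries of Plk2 and Eda2r interleave. Under scaling to the T cell markers Trp53inp1, Phlda3 and Aen, which sit higher with DB2313 here, were lower.

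Mdm2 and Ccng1 act in feedback on p53, Mdm2 as its ubiquitin ligase and cyclin G1, the product of Ccng1, as a partner of protein phosphatase 2A that acts on Mdm2. Mdm2 (ENSMUSG00000020184, chr10:117688875-117710758, minus strand) gave 107, 94.3 and 104 CPM in control and 87.3, 88.6 and 87.6 CPM in DB2313 libraries. The groups did not overlap, but the second control library came close to the DB2313 libraries, which lay within a narrow band. Means were 102 ± 6.59 and 87.8 ± 0.64 CPM (SD, n = 3), a log2 fold change of -0.21 (SE 0.047, 95% interval -0.31 to -0.11, edgeR adjusted p = 6.98e-04). Ccng1 (ENSMUSG00000020326, chr11:40748552-40755311, minus strand) gave 268, 268 and 269 CPM in control and 220, 239 and 241 CPM in DB2313 libraries. Here the control libraries were nearly the same and the first DB2313 library was the lowest. Means were 269 ± 0.08 and 233 ± 12 CPM (SD, n = 3), a log2 fold change of -0.20 (SE 0.038, 95% interval -0.28 to -0.12, edgeR adjusted p = 1.02e-04). The changes of these genes, 13.7% and 13.1% lower, were greater in size than those of 47.3% and 45.3% of tested genes.

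Zmat3 (ENSMUSG00000027663, chr3:32334792-32366014, minus strand) encodes a zinc finger RNA-binding protein that regulates splicing and transcript stability. It gave 56.2, 51.0 and 48.4 CPM in control and 39.7, 41.8 and 43.3 CPM in DB2313 libraries, with no overlap between the groups. Means were 51.9 ± 3.95 and 41.6 ± 1.77 CPM (SD, n = 3), a log2 fold change of -0.32 (SE 0.066, 95% interval -0.46 to -0.18, edgeR adjusted p = 3.31e-04), which made it the second largest of the falls.

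Trp53inp1 (ENSMUSG00000028211, chr4:11156431-11174379, plus strand) encodes a stress protein that promotes p53 activity and autophagy. It moved the other way under TMM scaling, with 173, 173 and 163 CPM in control and 196, 203 and 216 CPM in DB2313 libraries. Every DB2313 library was above every control library. Means were 170 ± 5.38 and 205 ± 10.4 CPM (SD, n = 3), a rise of 21% with a log2 fold change of 0.27 (SE 0.040, 95% interval 0.19 to 0.36, edgeR adjusted p = 5.00e-06), which became -0.31 under scaling to the T cell markers.

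Phlda3 (ENSMUSG00000041801, chr1:135766119-135769136, plus strand) encodes a pleckstrin homology domain protein that competes with Akt at the membrane. It gave 30.4, 33.6 and 33.4 CPM in control and 34.5, 38.6 and 37.9 CPM in DB2313 libraries, so that the groups lay side by side with a narrow gap. The log2 fold change was 0.19 (SE 0.071, 95% interval 0.043 to 0.34, edgeR adjusted p = 0.0323), and -0.40 under scaling to the T cell markers. With DESeq2 the adjusted p was 0.0952, and the call was also lost without control library 1 or 2 or DB2313 library 2 or 3. Aen (ENSMUSG00000030609, chr7:78895854-78911209, plus strand) encodes a nuclease that takes part in apoptosis. It gave 51.9, 52.4 and 55.2 CPM in control and 59.8, 62.2 and 57.5 CPM in DB2313 libraries, again without overlap. The log2 fold change was 0.17 (SE 0.056, 95% interval 0.054 to 0.29, edgeR adjusted p = 0.0159), and -0.42 under scaling to the T cell markers. Its adjusted p was 0.0624 without control library 1, 0.0546 without control library 2 and 0.0687 without DB2313 library 2. The calls of both genes thus depended on single libraries.

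Ei24, Plk2 and Eda2r did not pass the test. Ei24 (ENSMUSG00000062762, chr9:36779159-36797393, minus strand), which encodes a membrane protein of the endoplasmic reticulum needed for autophagy, gave 99.4, 101 and 103 CPM in control and 91.5, 99.4 and 92.5 CPM in DB2313 libraries. The second DB2313 library all but reached the lowest control library, the log2 fold change was -0.099 (SE 0.044, 95% interval -0.19 to -0.0075, edgeR adjusted p = 0.0724), and without that DB2313 library it was -0.13 with an adjusted p of 0.0258. The table places the antisense gene Gm26787 over 3519 bases of Ei24, and it had 0 to 3 counts per library. Plk2 (ENSMUSG00000021701, chr13:110395046-110400844, plus strand), a polo-like kinase of the stress response, gave 27.7, 30.4 and 26.7 CPM in control and 33.5, 27.8 and 29.8 CPM in DB2313 libraries. These libraries overlapped, with a log2 fold change of 0.11 (SE 0.081, 95% interval -0.063 to 0.27, edgeR adjusted p = 0.310). With 1 library left out its log2 fold change ranged from 0.028 to 0.17. Under library size scaling Plk2 passed at 0.20, with an adjusted p of 0.0441, and under scaling to the T cell markers it was -0.48.

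Eda2r (ENSMUSG00000034457, chrX:97333840-97377216, minus strand) encodes a receptor of the tumour necrosis factor family for the A2 form of ectodysplasin, the product of Eda. It had 44, 34 and 37 counts in control and 32, 47 and 37 counts in DB2313 libraries, the fewest of the 10 genes. Its log2 fold change was -0.045 (SE 0.27, edgeR adjusted p = 0.906), and its sign turned under library size scaling (0.049). The 95% interval, -0.60 to 0.50, was wide, so changes within it in either direction were not excluded at this depth. The ligand gene Eda had 0 to 4 counts per library and was below the filter.

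To compare levels between genes, CPM were divided by the gene length in kb that the table gives. In control libraries Cdkn1a stood highest (97.5 ± 2.68 CPM per kb, SD, n = 3), followed by Ccng1 (76.5 ± 0.023), Trp53inp1 (26.2 ± 0.83), Phlda3 (20.8 ± 1.14), Ei24 (20.8 ± 0.41), Mdm2 (20 ± 1.30), Aen (9.16 ± 0.30), Plk2 (6.29 ± 0.43), Zmat3 (4.54 ± 0.35) and Eda2r (0.378 ± 0.039). Phlda3 and Ei24, and Ei24 and Mdm2, were not separated beyond their spread. In DB2313 libraries Cdkn1a (62.1 ± 1.49) and Ccng1 (66.5 ± 3.41) stood together at the top and were not separated, while Trp53inp1 (31.7 ± 1.6), Phlda3 (23.8 ± 1.40), Ei24 (19.4 ± 0.88) and Mdm2 (17.3 ± 0.13) were. The place of Cdkn1a above Ccng1 was thus seen in control libraries and not in DB2313 libraries.

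Ratios between genes within a library do not depend on how libraries are scaled. They can still depend on the makeup of the libraries, in which T cell and macrophage marker shares differed between the groups. The pairs were chosen after their values were seen, the values are of counts per kb, and the exact two-sided permutation test over 3 against 3 libraries cannot go below 0.1. The ratio of Cdkn1a to Ccng1 was 1.24, 1.27 and 1.31 in control and 1.01, 0.916 and 0.879 in DB2313 libraries (1.27 ± 0.035 and 0.936 ± 0.069, SD, n = 3, exact permutation p = 0.1). Cdkn1a to Mdm2 was 4.51, 5.25 and 4.89 against 3.69, 3.58 and 3.51, again without overlap. Trp53inp1 to Mdm2 was 1.27, 1.44 and 1.23 in control and 1.76, 1.8 and 1.94 in DB2313 libraries. These ratios too did not overlap between the groups. Of single tested genes 53.1% did not overlap either, and the share over all pairs of genes was not computed. Cdkn1a to Cdkn1b, the gene of the related inhibitor p27, was 2.30, 2.5 and 2.67 in control and 1.37, 1.35 and 1.34 in DB2313 libraries, and all 3 DB2313 libraries were nearly alike. The ratio of Mdm2 to Trp53, by contrast, was 0.567 ± 0.026 and 0.522 ± 0.024 (SD, n = 3, exact permutation p = 0.2) and overlapped between the groups.

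**Figure D3:**
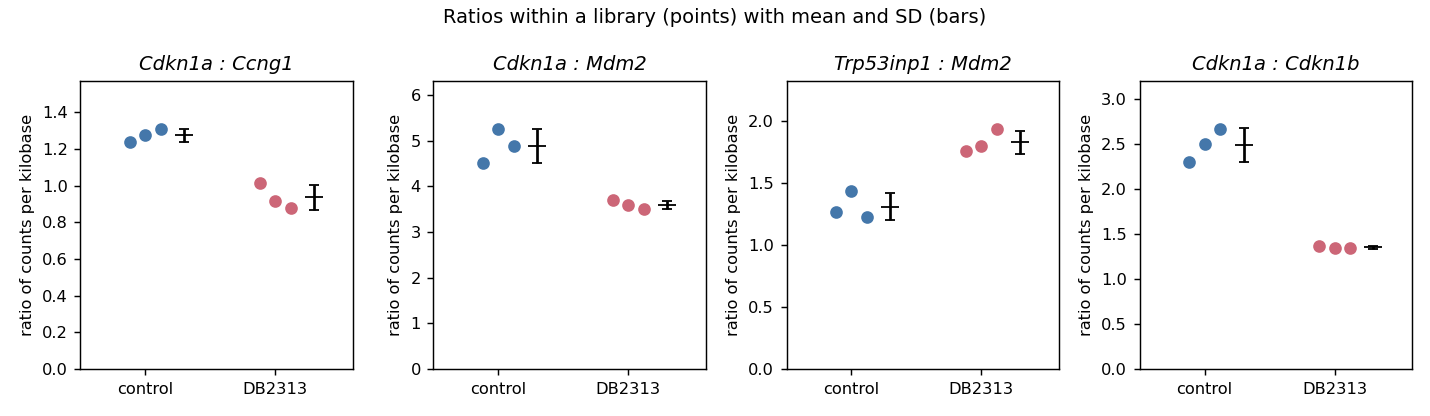
Ratio of counts per kb (y axis, linear, from 0) between Cdkn1a and Ccng1, Cdkn1a and Mdm2, Trp53inp1 and Mdm2, and Cdkn1a and Cdkn1b in each of the 3 control and 3 DB2313 libraries (points), with mean and SD as bars, one panel per pair. Control and DB2313 points do not overlap in any panel, with Cdkn1a to Cdkn1b at 2.30–2.67 and 1.34–1.37.

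Trp53 itself gave 149, 139 and 140 CPM in control and 134, 129 and 140 CPM in DB2313 libraries, which overlapped. The log2 fold change was -0.090 (SE 0.041, 95% interval -0.18 to -0.0041, edgeR adjusted p = 0.0820). Mdm4, which encodes an inhibitory partner of p53, was at 205 ± 13.4 and 208 ± 8.63 CPM (SD, n = 3), a log2 fold change of 0.018 (edgeR adjusted p = 0.765). Among p53 and its regulators, 16 genes were tested, with a median of 0.019 under TMM scaling. Of these, 4 were higher, 3 were lower and 9 did not pass, beside 20.8% higher and 24.6% lower over all tested genes. Under scaling to the T cell markers 0 were higher and 15 lower, beside 1.14% and 77.4% of all tested genes. Among the higher ones, Chek1, a checkpoint kinase that phosphorylates p53, went from 10.3 to 14.6 CPM (log2 fold change 0.50), Rpl5, a ribosomal protein that binds Mdm2, rose by 0.25 and Trp53bp1 by 0.23, and all 3 were below 0 under scaling to the T cell markers. Among the lower ones, Hipk2, a kinase that acts on p53, went from 48.7 to 30.5 CPM (-0.68), Chek2 fell by 0.30 and Ep300, an acetyltransferase, by 0.20 on the log2 scale. The call of Chek2 was lost without control library 3 or DB2313 library 3, and Trp53 passed without DB2313 library 3, at -0.12.

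Of 30 other p53 targets, 10 were higher, 7 were lower and 13 did not pass under TMM scaling, with a median of 0.041. This wider list also contained changes in both directions, as did all tested genes, with 20.8% higher and 24.6% lower. Under scaling to the T cell markers 1 was higher and 26 were lower, beside 1.14% and 77.4% of all tested genes. Gdf15, a stress cytokine, rose from 14.2 ± 1.05 to 26.7 ± 0.31 CPM (log2 fold change 0.91, edgeR adjusted p = 5.91e-09), and Ddb2, which recognises ultraviolet damage in DNA, from 24.3 to 34.6 CPM (0.51, and -0.077 under scaling to the T cell markers). The sestrins Sesn1 and Sesn2, which restrain mTORC1, parted. Sesn1 rose from 58.1 ± 0.34 to 89.1 ± 2.43 CPM (0.62, and 0.028 without passing under scaling to the T cell markers), whereas Sesn2 fell from 73.9 ± 2.72 to 42.7 ± 1.27 CPM (-0.79), and their ratio within a library was 0.687 ± 0.023 in control and 1.82 ± 0.042 in DB2313 libraries (SD, n = 3), without overlap. Sesn2 is known to be induced also by the integrated stress response. Abhd4 fell from 57.4 to 35.7 CPM (-0.68) and Pmaip1, which encodes the death-promoting protein Noxa, from 72.3 ± 2.30 to 46.0 ± 2.16 CPM (-0.65).

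**Figure D4:**
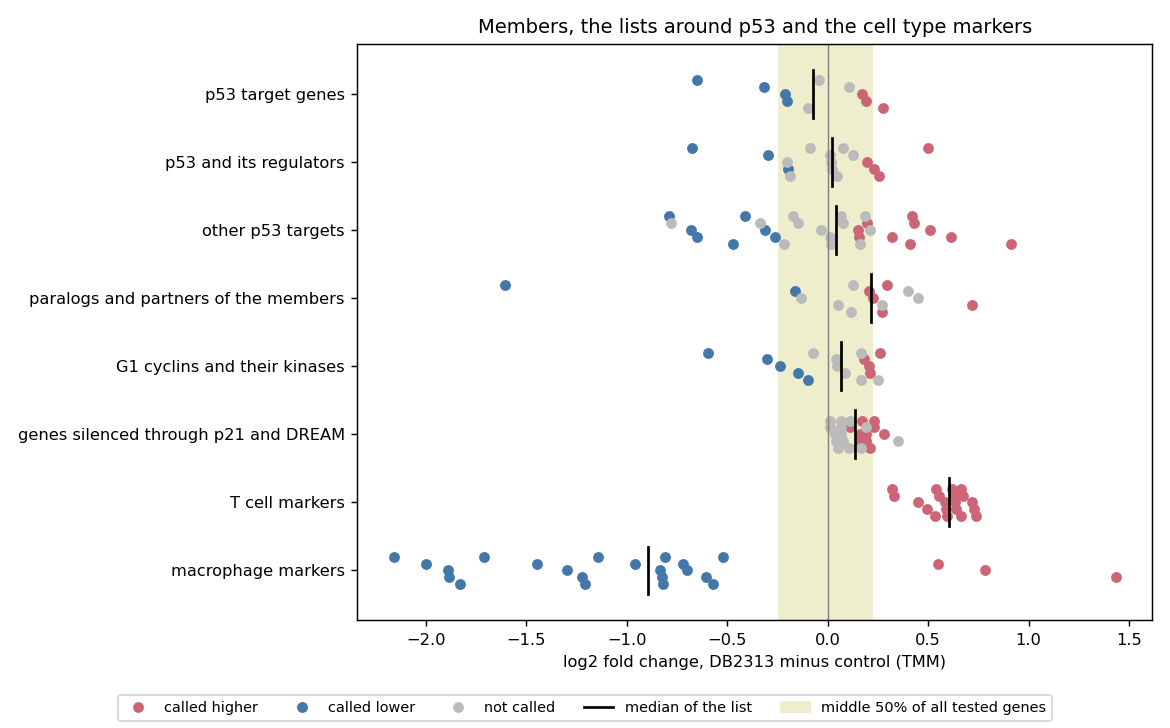
Log2 fold change (DB2313 minus control, x axis, TMM scaling) of every tested gene of the p53 target genes, 5 lists around p53 and the T cell and macrophage markers (y axis), coloured by call, with the list median as a bar and the middle 50% of all tested genes shaded. The 10 p53 targets have a median of -0.072 and the 24 genes silenced through p21 and DREAM all lie above 0. Under scaling to the T cell markers all 10 targets and 23 of those 24 genes were called lower, as were 77.4% of tested genes.

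Among 14 tested paralogs and partners of the 10 genes, 5 were higher and 2 were lower under TMM scaling, with a median of 0.21. Over all tested genes 20.8% were higher and 24.6% lower. Under scaling to the T cell markers the counts were 0 and 11, beside 1.14% and 77.4% of all tested genes. Trp53inp2, the relative of Trp53inp1 that acts in autophagy, gave 45.6, 41.0 and 48.3 CPM in control and 15.6, 14 and 14.6 CPM in DB2313 libraries. All DB2313 libraries were far below control, with a log2 fold change of -1.61 (SE 0.082, edgeR adjusted p = 6.99e-14), whereas Trp53inp1 was higher under TMM scaling. Their ratio within a library was 3.08 ± 0.34 in control and 11.3 ± 1.03 in DB2313 libraries (SD, n = 3). Ccng2, the paralog of Ccng1, was likewise higher (75.3 and 90.9 CPM, 0.27) where Ccng1 was lower, although both were lower under scaling to the T cell markers. Isg20, a paralog of Aen, rose from 41.3 to 67.9 CPM (0.72, and 0.13 without passing under scaling to the T cell markers). Zmat5 rose by 0.30, a call that was lost without control library 1 and a sign that turned under scaling to the T cell markers, and Bcl2l1, an inhibitor of cell death, fell by 0.16 on the log2 scale. Cdkn1b, named after its values were seen, was at 179 and 209 CPM (0.23, and -0.36 under scaling to the T cell markers).

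The list of G1 cyclins and their kinases also held genes of the Rb and E2F families, genes of their partners, and Pcna. This list was divided, with 4 of 16 genes higher and 5 lower under TMM scaling and a median of 0.066. These are 25% and 31.25% of the list, beside 20.8% higher and 24.6% lower of all tested genes. Of its cyclins and kinases only Cdk4 was higher under TMM scaling, and most of the genes called lower were cyclins or kinases. Any link of this list or the next to the change of Cdkn1a was not tested. Pcna, the replication clamp that p21 binds, was higher (228 and 273 CPM, 0.26), as were Cdk4 (0.21) and Rbl1 (0.20). Ccnd1 was lower (31.4 and 20.8 CPM, -0.59, edgeR adjusted p = 9.69e-07), as were E2f1 (-0.30) and Rb1 (-0.24). Of 24 cell cycle genes that p21 is known to silence through the DREAM repressor complex, 10 were higher, 0 were lower and 14 did not pass in edgeR's test, with a median of 0.13. At an unadjusted p under 0.05 0 were lower too, DESeq2 gave 9 higher and 0 lower and limma-voom 10 and 0, and all 24 values were above 0 in edgeR's fit, from 0.0094 to 0.35. These tests used the same counts, so they are not independent of each other. The list was chosen with earlier results of these data known. Over all tested genes 52.3% of values were above 0 and 20.8% of genes were higher. The lowest value of the list was -0.042 without control library 1, -0.018 without DB2313 library 1 and -0.012 without DB2313 library 2. Mcm6 went from 174 to 212 CPM (0.28), Top2a from 251 to 295 CPM (0.23) and Cks1b rose by 0.23. Under scaling to the T cell markers the 16 and 23 genes of these lists that passed were all lower, beside 77.4% of tested genes. The direction of both lists thus depended on the reference chosen.

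That scaling used the T cell markers as the constant, and it moved the median log2 fold change of all tested genes to -0.57, a shift of -0.59. Another scaling moves all genes by about the same amount, so differences from the median gene are nearly the same under each by construction. Under TMM scaling they were -0.67 for Cdkn1a, 0.26 for Trp53inp1 and -0.091 for the median of the 10 targets. The TMM-scaled log2 fold change of Cdkn1a, -0.65, lay between the medians of the T cell markers, 0.61, and the macrophage markers, -0.90, as did those of the 9 other targets. That interval is wide, and 84.6% of tested genes had a change smaller in size than that of Cdkn1a. The placement is therefore not particular to the targets. Which of the cell types in the libraries the transcripts came from was not tested.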

How the data were processed

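RNA labelled as that of primary T cells after coculture was sequenced in bulk in 6 libraries, 3 control and 3 DB2313 according to the labels. The authors deposited unnormalized read counts per gene in 1 table with gene coordinates and lengths. The submitters' processing notes name CASAVA 1.8, HISAT2 2.0.5 and featureCounts 1.5.0-p3, whereas the study's methods name another aligner. Genome build, annotation and strand setting are not given in the sources used here. The coordinates of 53499 of 54409 shared genes, and of all 10 described genes, equalled those of GENCODE M21 (GRCm38).

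The 10 genes, the lists around them and the markers were chosen with earlier results of these data known. Counts were tested with edgeR 4.0.16 (filterByExpr, TMM scaling, quasi-likelihood test) in R 4.3.3 over all genes that passed the filter, with Benjamini-Hochberg adjustment at 0.05. Standard errors were derived from the log2 fold change and the F statistic, and single values were compared with the exact two-sided permutation test. Totals of 16611975 to 18596217 counts and a common biological coefficient of variation of 4.67% set the precision. Libraries of a group differed by more than sampling noise. Alternatives were other scalings (library size, upper quartile, T cell markers), DESeq2 1.42.0, limma-voom 3.58.1, other filters, protein-coding genes, a replicate block, a fold threshold and leaving out each library. Besides the 10 genes, Trp53, Mdm4 and Spi1, the text names from each list around p53 the 3 higher and 3 lower genes with the largest change among those with a mean of at least 5 CPM, and genes that overlap one of the 10. Exceptions named for their values are Marco, Trem2, Ms4a7, Flt3, Siglech, Eda, Cdkn1b and the genes of the closing observations. The tests were checked on simulated counts, in which few genes changed and rises and falls were equal in number. That check therefore does not cover the choice of scaling.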

Additional observations from a re-analysis of the deposited data

How the results depend on the processing

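Of 150 alternative values of the 10 p53 targets, 129 kept their direction and side of the threshold, 8 lost the call, 4 gained it and 9 changed sign. Leaving out 1 library at a time gave 2558 to 2894 higher and 3279 to 3516 lower genes in all, 1 to 3 higher and 4 to 5 lower p53 targets, 4 to 4 higher and 2 to 3 lower regulators, 7 to 9 and 7 to 8 other targets, 4 to 6 and 2 to 2 paralogs and partners, 4 to 5 and 4 to 5 G1 genes, and 9 to 10 and 0 to 0 DREAM genes. Library size scaling called 4931 genes higher in all, with 7 higher and 1 lower regulators, 10 and 1 paralogs and partners, 9 and 3 G1 genes and 18 higher DREAM genes. Upper quartile scaling called 4319 genes higher and 3102 lower in all. It gave 9 higher paralogs and partners, 8 higher and 3 lower G1 genes and 16 higher DREAM genes. Scaling to the T cell markers, which by its construction sets these markers to no change, called 170 genes higher and 11513 lower, with 0 and 10 p53 targets, 0 and 15 regulators, 1 and 26 other targets, 0 and 11 paralogs and partners, 0 and 16 G1 genes and 0 and 23 DREAM genes. Requiring an absolute log2 fold change above 1 left 204 genes higher and 789 lower, with 0 of the p53 targets and 0 in each list around p53 apart from 1 lower gene (Trp53inp2). Without division by length 5 of the 10 targets kept their rank in control libraries.

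Under scaling to the T cell markers the sign turned for Phlda3 (-0.40), Trp53inp1 (-0.31), Aen (-0.42), Plk2 (-0.48), Mdm4 (-0.57), Chek1 (-0.088), Rpl5 (-0.33), Trp53bp1 (-0.36), Ddb2 (-0.077), Zmat5 (-0.29), Ccng2 (-0.32), Pcna (-0.33), Cdk4 (-0.38), Rbl1 (-0.38), Mcm6 (-0.31), Top2a (-0.36) and Cks1b (-0.36). Eda2r was at 0.049 under library size and 0.019 under upper quartile scaling, and from -0.25 to 0.094 with 1 library left out (0.028 without control library 1, 0.094 without DB2313 library 1 and 0.0058 without DB2313 library 3). Trp53 was at 0.0045 under library size scaling, and Mdm4 ranged from -0.029 to 0.062 with 1 library left out, at -0.029 without control library 3 and -0.012 without DB2313 library 3. Beyond what these settings show by construction, the cause was not tested. Libraries with the same replicate number shared only that number. Their deviations correlated at -0.0228 to -0.00332, and 0 of 3 control libraries correlated best with the DB2313 library of its number. With the replicate as a block 2912 genes were higher and 3525 lower, and 3 and 4 p53 targets. Depth limits Eda2r, with 32 to 47 counts per library.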

Other observations

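Further genes of the 30 other p53 targets, whose calls were already counted above, differed in both directions after TMM scaling (20.8% of tested genes higher and 24.6% lower). They are named here after their values were seen, with edgeR's test. Btg2, an antiproliferative gene of lymphocytes, was at 141 ± 5.32 and 190.4 ± 3.16 CPM in control and DB2313 libraries (SD, n = 3), a log2 fold change of 0.43 (adjusted p = 1.67e-09). Xpc, which recognises damaged DNA, was higher by 0.42 and Sfn, which encodes a 14-3-3 protein, by 0.41. Bax, which encodes a death-promoting protein of mitochondria, was higher (136 ± 3.79 and 170 ± 4.05 CPM, 0.32), as was Bbc3 (0.16, adjusted p = 0.0333). Under scaling to the T cell markers all 5 of these genes were lower, at -0.16 for Btg2, -0.17 for Xpc, -0.18 for Sfn, -0.27 for Bax and -0.43 for Bbc3. Apaf1, which encodes the apoptosome scaffold, was lower (-0.31). The death receptor gene Fas was at 52.7 ± 3.10 and 51.5 ± 2.34 CPM and did not pass the test (adjusted p = 0.697), nor did Perp (adjusted p = 0.224), Tnfrsf10b (0.0597) and Pidd1 (0.202). Scaling to the T cell markers made these genes lower, at -0.62 for Fas, -0.80 for Perp, -0.93 for Tnfrsf10b and -0.43 for Pidd1. It also made 77.4% of all tested genes lower. Lif (-0.47), Rps27l (-0.41) and Tigar (-0.26) were lower under both scalings.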
